A study of Mus musculus with 18 samples.

Results

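The 10 genes described here are mouse genes tied to pericytes and vascular smooth muscle cells, the mural cells that wrap retinal vessels, with the endothelial ligand Pdgfb among them: Pdgfrb, Pdgfb, Cspg4, Rgs5, Acta2, Tagln, Des, Abcc9, Notch3 and Myh11. The rule that defines the set lists gene names and uses no measured value, and all 10 were found among the 35006 gene names of the count tables. The tables hold 18 libraries of retinal RNA of male mice aged 24 weeks, in 4 groups: 3 WT libraries (C57BL/6J mice), 6 of WT + NACET, 4 of Akita and 5 of Akita + NACET. Akita mice, strain C57BL/6-Ins2Akita/J, were heterozygous for a mutation of the insulin gene Ins2 and are a model of diabetes from failing pancreatic beta cells, so that every tissue carried the mutation and the diabetes was present in the whole animal, while WT mice were normoglycemic. Treated mice drank water with 0.33 mg/mL NACET, an ester of N-acetylcysteine that serves as an antioxidant, for a daily dose of 50 mg/kg between weeks 4 and 24 of life, while untreated mice drank plain water. The labels name separate samples and do not say how they were housed or processed, so that p-values measure the spread between these samples, which may be partly technical.

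Pericytes share the basement membrane of capillaries with the endothelium, and smooth muscle cells ring the arterioles. Endothelial cells release the growth factor PDGF-BB, encoded by Pdgfb, and its receptor on mural cells, encoded by Pdgfrb, recruits and keeps them. Notch3 is the Notch receptor of mural cells. The retina is unusually rich in pericytes, and their loss is an early lesion of diabetic retinopathy. In RNA of a whole retina, fewer cells of a type and less RNA per cell cannot be told apart.

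Levels are given in CPM, counts relative to library size after TMM scaling, and between genes as CPM per kb of exon. Rgs5, which encodes a regulator of G protein signalling and is a common pericyte marker, had the highest mean level per length, 10.6 CPM per kb, with a range of 4.26 to 18.6 over the 18 libraries. Acta2, smooth muscle actin, followed with 2.71 CPM per kb (range 0.63 to 19.3), and its top value came from 1 library that is described further on. Pdgfrb (0.654 CPM per kb, range 0.287 to 1.3) and Tagln (0.603, range 0.217 to 2.1), which encodes the actin-binding protein transgelin, overlapped over most of their ranges. The smooth muscle myosin heavy chain gene Myh11 stood at 0.289 CPM per kb (range 0.0114 to 1.8). The mean levels per length of the other 5 genes lay between 0.0522 CPM per kb for Abcc9 and 0.1 CPM per kb for Notch3, and their ranges overlapped. The set as labelled was therefore well sampled for Rgs5 and thinly for the rest: the median library held 702 counts of Rgs5, 52 of Pdgfrb, 51 of Acta2, 15 of Myh11, 12 of Tagln, 11 of Notch3, 8 of Cspg4, 5.5 of Abcc9, 4.5 of Pdgfb and 4 of Des. Pdgfb and Des did not pass the filter on low counts, which leaves 8 of the 10 genes in the tests across 16183 genes. The libraries held 11495596 to 17814479 counts in genes, and the counting intervals given below are exact 95% Poisson intervals that cover counting error only.

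**Figure D1:**
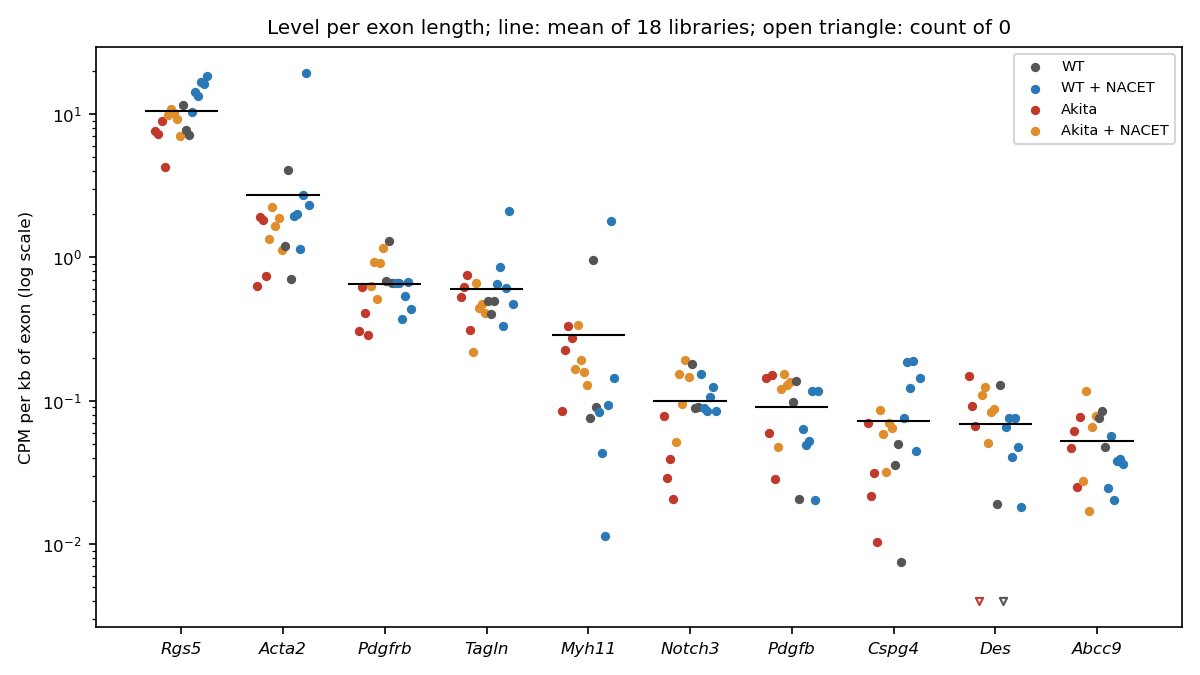
Level of each of the 10 genes in each of the 18 libraries as CPM per kb of exon on a log axis, coloured by group, with the mean over all libraries as a line and counts of 0 as open triangles at the bottom. Rgs5 has the highest mean (10.6 CPM per kb) and Abcc9 the lowest (0.0522), and 1 WT + NACET library stands high in Acta2, Tagln and Myh11.

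By the annotation of build mm9, in which the reads were counted, Rgs5 lies at chr1:171585632-171625944, Notch3 at chr17:32257765-32303825, Cspg4 at chr9:56712911-56747677, Abcc9 at chr6:142536382-142650794, Acta2 at chr19:34315580-34329826, Myh11 at chr16:14194620-14291501, Tagln at chr9:45737711-45744141, Pdgfb at chr15:79826330-79845238 and Des at chr1:75356904-75365154. The counting took no account of strand. Exons of Tagln overlap those of the opposite-strand gene Pcsk7 over 65 bases, exons of Des those of Gm15179 over 220 bases and exons of Notch3 those of Gm17276 over 488 bases, and reads of the 2 strands cannot be told apart there. Reads that align to several places were left out, which can lower a gene with close relatives. Of the actin genes related to Acta2, Acta1 had a mean of 1.58 CPM, Actc1 0.753 CPM and Actg2 0.0286 CPM.

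The smooth muscle genes are textbook targets of serum response factor, which binds the CArG box (CC, then 6 bases that are A or T, then GG). The RefSeq promoters of build GRCm38.p6 were searched for it over the 250 bases before the start of the gene, in which 6 of the 10 genes were matched by symbol (Cspg4, Rgs5, Acta2, Des, Abcc9 and Notch3). The motif is its own reverse complement, so that a single search covers both strands. An exact match stood in 0 of these 6 promoters, against 1.47% of all 32851 promoters in the table, and a match with at most 1 letter off stood in 2 of the 6, Acta2 and Cspg4, against 18.6% of all. The promoter of Acta2 is shown with that of Myl9, a smooth muscle myosin light chain gene, since both genes were highest in the same library. Myl9 was chosen after its values were seen. Capitals mark matches with at most 1 letter off, and CCTAATAAGG in Myl9 is an exact one. Acta2 (chr19:34255374-34255623, minus strand) has its 2 matches starting 84 and 34 bases before the start, and Myl9 (chr2:156775214-156775463, plus strand) 161 and 99 bases before it.
Acta2: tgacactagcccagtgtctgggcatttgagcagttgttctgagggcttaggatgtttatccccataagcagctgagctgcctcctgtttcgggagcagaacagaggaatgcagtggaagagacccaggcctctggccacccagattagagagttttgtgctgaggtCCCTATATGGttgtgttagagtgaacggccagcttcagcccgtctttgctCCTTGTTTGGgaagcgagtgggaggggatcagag
Myl9: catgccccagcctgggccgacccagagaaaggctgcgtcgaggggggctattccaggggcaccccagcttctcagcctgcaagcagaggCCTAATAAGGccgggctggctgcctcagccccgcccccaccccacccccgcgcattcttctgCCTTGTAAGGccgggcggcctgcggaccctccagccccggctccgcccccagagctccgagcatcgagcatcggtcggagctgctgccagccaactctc
A match is a stretch of letters and was not tested as a binding site.

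Pdgfrb (mm9 chr18:61204804-61244715), the receptor through which mural cells answer PDGF-BB, had its lowest mean in Akita. Its level was 3.73, 7.11 and 3.61 CPM in WT, 1.68, 3.42, 2.26 and 1.57 CPM in Akita, and 3.45, 5.13, 2.81, 5.03 and 6.34 CPM in Akita + NACET. In WT + NACET it ran from 2.05 over a median of 3.29 to 3.68 CPM. Every Akita library lay below every WT library, while Akita replicate 2 lay above the lowest Akita + NACET library and the WT + NACET libraries overlapped both WT and Akita. The group means were 4.82 ± 1.99 CPM (SD, n = 3) in WT, 3.06 ± 0.712 (n = 6) in WT + NACET, 2.23 ± 0.844 (n = 4) in Akita and 4.55 ± 1.42 (n = 5) in Akita + NACET. Pdgfrb was 2.12-fold lower in Akita than in WT (log2 fold change, log2FC, of -1.08, SE 0.32, adjusted p = 0.0437 by the edgeR quasi-likelihood test). It was 2.01-fold higher in Akita + NACET than in Akita (log2FC 1.01, SE 0.29, adjusted p = 0.0354). Both comparisons rest on the same 4 Akita libraries. The 2 responses to NACET, in Akita and in WT (log2FC -0.64, SE 0.29, adjusted p = 0.224), differed by 1.65 on the log2 scale (SE 0.40, adjusted p = 0.0105, interaction of genotype with NACET).

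These calls of Pdgfrb lay close to the threshold of an adjusted p of 0.05. The call in Akita vs WT was lost in 8 of 16 alternatives, among them without each of Akita replicates 1, 3 and 4 and WT replicates 1 and 2 in turn. The log2FC was -1.23 to -0.70 without these, and the value nearest 0 was that without WT replicate 2, which had the highest level (adjusted p = 0.254). The call in Akita + NACET vs Akita was lost in 9 of 17, without each of Akita replicates 1, 3 and 4 and Akita + NACET replicates 2, 4 and 5 among them (log2FC 0.86 to 1.01), and the interaction in 3 of 26, at 1.27 with an adjusted p of 0.0506 without WT replicate 2. The share of reads outside exons moved with the same groups: it was 14.9 to 17.1% in WT, 9.67 to 13.3% in Akita, 14.3 to 19.8% in Akita + NACET and 9.55 to 16.5% in WT + NACET. Once this non-exonic share entered the fit, the log2FC of Pdgfrb was -0.48 between Akita and WT (adjusted p = 0.567), 0.38 between Akita + NACET and Akita (adjusted p = 0.763) and 0.58 for the interaction (adjusted p = 0.764).

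Notch3, which keeps arterial smooth muscle and pericytes differentiated, had its lowest mean in Akita too, at far lower counts. Its level was 1.44, 0.719 and 0.723 CPM in WT, 0.631, 0.232, 0.314 and 0.166 CPM in Akita, and 0.413, 1.24, 0.766, 1.55 and 1.18 CPM in Akita + NACET. In WT + NACET it ran from 0.682 over 0.783 to 1.23 CPM. The 4 Akita libraries lay below all WT and WT + NACET libraries, and Akita replicate 1 overlapped Akita + NACET replicate 1. They held 2 to 9 counts each, so that the value of Akita replicate 4 has an interval of 0.0201 to 0.599 CPM. The filter on low counts needs 0.657 CPM in at least 3 libraries, with CPM taken before TMM scaling, so that it can differ slightly from the levels given here. Notch3 reached this in 3 WT, 5 WT + NACET, 4 Akita + NACET and 0 Akita libraries. It was therefore tested because it was high outside Akita. Notch3 rose in Akita + NACET relative to Akita, from 0.336 ± 0.206 to 1.03 ± 0.444 CPM (SD, n = 4 and n = 5), by 3.03-fold (log2FC 1.60, SE 0.42, adjusted p = 0.029). Between Akita and WT its log2FC was -1.49 (SE 0.48) with an adjusted p of 0.0579, which missed the threshold, and DESeq2 gave an adjusted p of 0.045. In WT + NACET vs WT it was -0.14 (SE 0.39, adjusted p = 0.874), and the 2 responses to NACET differed by 1.74 (SE 0.58, adjusted p = 0.0394). The call in Akita + NACET vs Akita was lost in 9 of 16 alternatives, without each of Akita replicates 2, 3 and 4 and Akita + NACET replicates 2, 4 and 5 among them (log2FC 1.40 to 1.56). The interaction was lost in 14 of 25, without each of those libraries, WT replicates 1 and 2 and WT + NACET replicates 3 and 6 among them (1.33 to 1.89). Once the non-exonic share entered the fit, the log2FC was -1.05 between Akita and WT, 1.15 between Akita + NACET and Akita and 0.95 for the interaction (adjusted p = 0.44, 0.628 and 0.745).

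**Figure D2:**
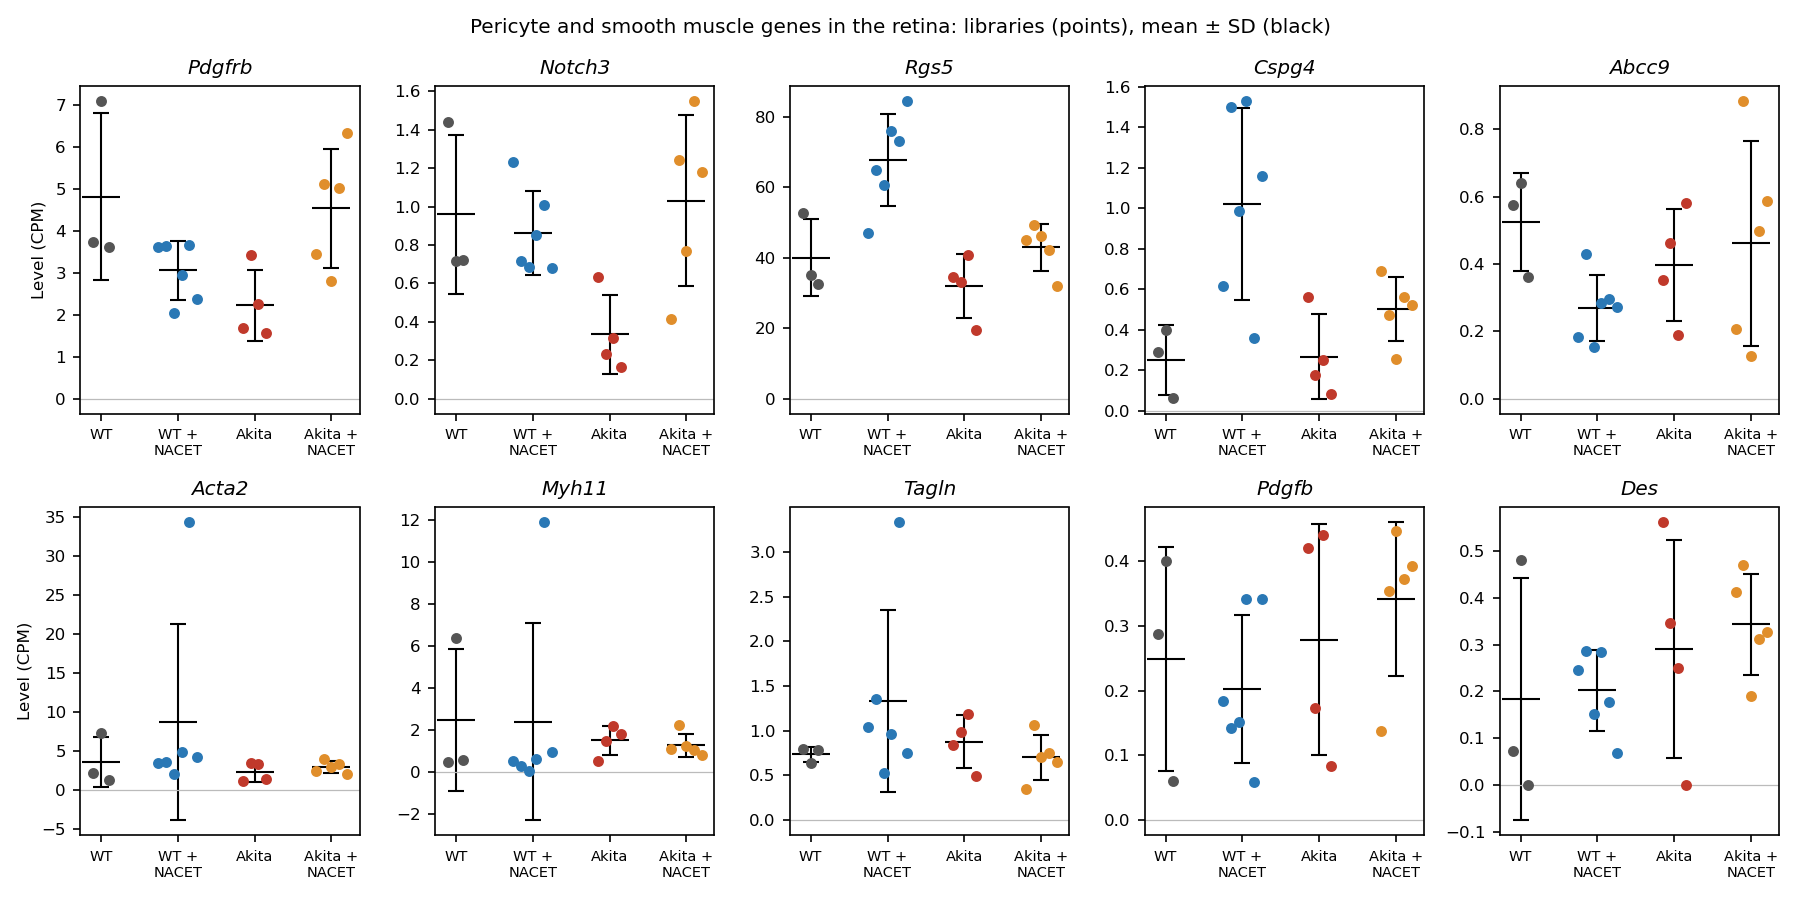
Level in CPM of each of the 10 genes by group, with a point for each library and the group mean ± SD in black (n = 3 WT, 6 WT + NACET, 4 Akita and 5 Akita + NACET), each panel on its own linear axis. Pdgfrb and Notch3 have their lowest group mean in Akita (2.23 and 0.336 CPM), Rgs5 and Cspg4 their highest in WT + NACET (67.8 and 1.02 CPM).

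Rgs5, the member with the most reads, had its highest mean in WT + NACET. The level was 52.7, 35.2 and 32.5 CPM in WT, 34.7, 33.1, 40.8 and 19.4 CPM in Akita, and 45.2, 49.4, 46.1, 42.3 and 31.9 CPM in Akita + NACET. In WT + NACET it ran from 47 over 69.2 to 84.6 CPM. A single WT + NACET library fell within the range of WT or of Akita + NACET, and none within that of Akita. Rgs5 was 1.58-fold lower in Akita + NACET than in WT + NACET, at 43 ± 6.71 against 67.8 ± 13.2 CPM (SD, n = 5 and n = 6), so that its log2FC was -0.66 (SE 0.18, adjusted p = 0.0261). Its log2FC was 0.76 in WT + NACET vs WT (SE 0.22, adjusted p = 0.082), -0.32 in Akita vs WT (SE 0.23, adjusted p = 0.387) and 0.42 in Akita + NACET vs Akita (SE 0.20, adjusted p = 0.177). The interaction of genotype with NACET was -0.33 (SE 0.29, adjusted p = 0.433). The call in Akita + NACET vs WT + NACET was lost in 8 of 20 alternatives, among them without Akita + NACET replicate 4 or 5 or WT + NACET replicate 5 or 6, while its log2FC stayed between -0.74 and -0.53. In WT + NACET vs WT, DESeq2 called Rgs5 (adjusted p = 0.0135), as did edgeR without WT + NACET replicate 1 (adjusted p = 0.0488).

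Cspg4, which encodes the NG2 proteoglycan of pericytes and of glial precursor cells, was also highest on average in WT + NACET. Its counts were 4, 5 and 1 in WT, 8, 3, 4 and 1 in Akita, 10, 8, 4, 9 and 8 in Akita + NACET, and 6 to 27 in WT + NACET. Cspg4 passed the filter on low counts, 0.657 CPM in at least 3 libraries, through 4 WT + NACET libraries and 1 of Akita + NACET, so that it was tested because it was high there. In CPM its counts gave means of 0.249 ± 0.173 (SD, n = 3), 0.267 ± 0.208 (n = 4), 0.5 ± 0.158 (n = 5) and 1.02 ± 0.473 (n = 6). WT + NACET replicate 5, at 0.357 CPM, lay within the WT range, and the other 5 WT + NACET libraries lay above every WT and Akita library. The log2FC in WT + NACET vs WT was 2.07 (SE 0.58, adjusted p = 0.0706), and without WT + NACET replicate 5 it was 2.25 (adjusted p = 0.0485). It was 0.87 in Akita + NACET vs Akita (SE 0.55, adjusted p = 0.306) and in Akita + NACET vs WT + NACET -1.02 (SE 0.42, adjusted p = 0.102).

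Comparisons with the WT + NACET group carry a difference that is not specific to mural cells. Acp1 had a mean of 2.48 CPM in WT + NACET against 32.7 to 36.7 CPM in the other groups, and Wdfy1 95.2 against 14.2 to 16 CPM, with no overlap between libraries. Both genes were chosen after their values were seen. The summed level of 10 markers of pigment epithelium and choroid, which border the retina, had its highest median there too: it ran from 314 over a median of 538 to 904 CPM in WT + NACET, from 91.1 over 111 to 710 CPM in WT, from 55 over 65 to 180 CPM in Akita and from 55.1 over 301 to 345 CPM in Akita + NACET. The part of these differences in the levels of Rgs5 and Cspg4 and in the interactions of Pdgfrb and Notch3 was not tested. NACET and whatever else marks these 6 libraries cannot be told apart in a comparison with WT or in an interaction.

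Abcc9, which encodes a subunit of a potassium channel of pericytes and smooth muscle, was read 2 to 15 times per library. Before TMM scaling it reached the filter level of 0.657 CPM in 1 WT, 2 Akita + NACET, 0 WT + NACET and 0 Akita libraries. It was therefore tested because it was high in libraries of WT and Akita + NACET. Its mean was 0.525 ± 0.146 CPM (SD, n = 3) in WT, 0.27 ± 0.0975 (n = 6) in WT + NACET, 0.396 ± 0.167 (n = 4) in Akita and 0.461 ± 0.305 (n = 5) in Akita + NACET, and the groups overlapped in every comparison. The log2FC farthest from 0 among the comparisons of 2 groups was -0.92 in WT + NACET vs WT (SE 0.51, adjusted p = 0.322). At 1.71-fold between Akita + NACET and WT + NACET (log2FC 0.77, SE 0.44, adjusted p = 0.242), the difference was within the spread of the libraries.

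Pdgfb, the ligand of the receptor encoded by Pdgfrb, was read 1 to 7 times per library, with means of 0.249 ± 0.173 CPM (SD, n = 3) in WT, 0.203 ± 0.114 (n = 6) in WT + NACET, 0.279 ± 0.178 (n = 4) in Akita and 0.341 ± 0.119 (n = 5) in Akita + NACET. Des, which encodes desmin, the intermediate filament of muscle and pericytes, was read 0 to 8 times. The means of Des were 0.184 ± 0.259 CPM in WT, 0.202 ± 0.0856 in WT + NACET, 0.29 ± 0.233 in Akita and 0.343 ± 0.107 in Akita + NACET. Its 0 counts in WT replicate 3 and Akita replicate 4 allow up to 0.181 and 0.249 CPM, taken as the value of 3 counts, and the exact 95% intervals end at 0.222 and 0.306 CPM. At this depth no difference of either gene was detectable: in the fit without a filter, the adjusted p of Pdgfb was at least 0.476 and that of Des at least 0.539 in every comparison.

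The contractile genes turned on single libraries. Acta2, the actin of smooth muscle and of contractile pericytes, was at 2.15, 7.27 and 1.26 CPM in WT, 1.12, 3.42, 3.27 and 1.33 CPM in Akita, and 2.41, 4.01, 2.94, 3.36 and 2.02 CPM in Akita + NACET. In WT + NACET it ran from 2.05 over 3.87 to 34.3 CPM. The value of 34.3 CPM, from 577 counts in WT + NACET replicate 5, had an interval of 31.5 to 37.2 CPM, and the next highest of all 18 libraries was WT replicate 2. Myh11, the motor of smooth muscle contraction, showed the same pair of libraries on top, at 11.9 CPM in WT + NACET replicate 5 and 6.4 CPM in WT replicate 2. The other libraries held 0.503 and 0.602 CPM of Myh11 in WT, 0.0759 to 0.955 CPM in WT + NACET, 0.561, 1.51, 2.2 and 1.82 CPM in Akita, and 1.1, 2.24, 1.28, 1.06 and 0.849 CPM in Akita + NACET. Tagln stood at 3.33 CPM in WT + NACET replicate 5 and at 0.345 to 1.36 CPM elsewhere, WT replicate 2 included at 0.64 CPM. The 3 genes were therefore high together in 1 library, and WT replicate 2 shared this in Acta2 and Myh11.

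Markers of tissue around the retina were high in the same libraries. The summed level of 10 fibroblast and perivascular markers was 76.9 CPM in WT + NACET replicate 5 and 61.8 CPM in WT replicate 2, against 16.5 to 68.9 CPM in the others, where the top value belonged to Akita replicate 3. The summed level of 10 pigment epithelium and choroid markers was 904 and 710 CPM in these 2 libraries and 55 to 703 CPM in the others. Of these markers, Dct, a melanin-forming enzyme, reached 426 CPM in WT + NACET replicate 5 and 249 CPM in WT replicate 2, against 10.2 to 86.2 CPM in the others. The 10 markers did not all share this pattern. Rpe65, Ttr and Lrat reached at most 43.2, 190 and 24.8 CPM in WT. Their medians in WT + NACET were higher, at 63.9, 237 and 48.6 CPM. The summed level of 12 skeletal muscle markers, 16.1 CPM in WT replicate 2 and 8.5 CPM in WT + NACET replicate 5, was 6.03 to 10.2 CPM in the others. Rgs5, by contrast, was at 73.3 CPM in WT + NACET replicate 5 and at 35.2 CPM in WT replicate 2, within the range of the rest of their groups. The part of neighbouring tissue in the contractile genes was not tested.

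**Figure D3:**
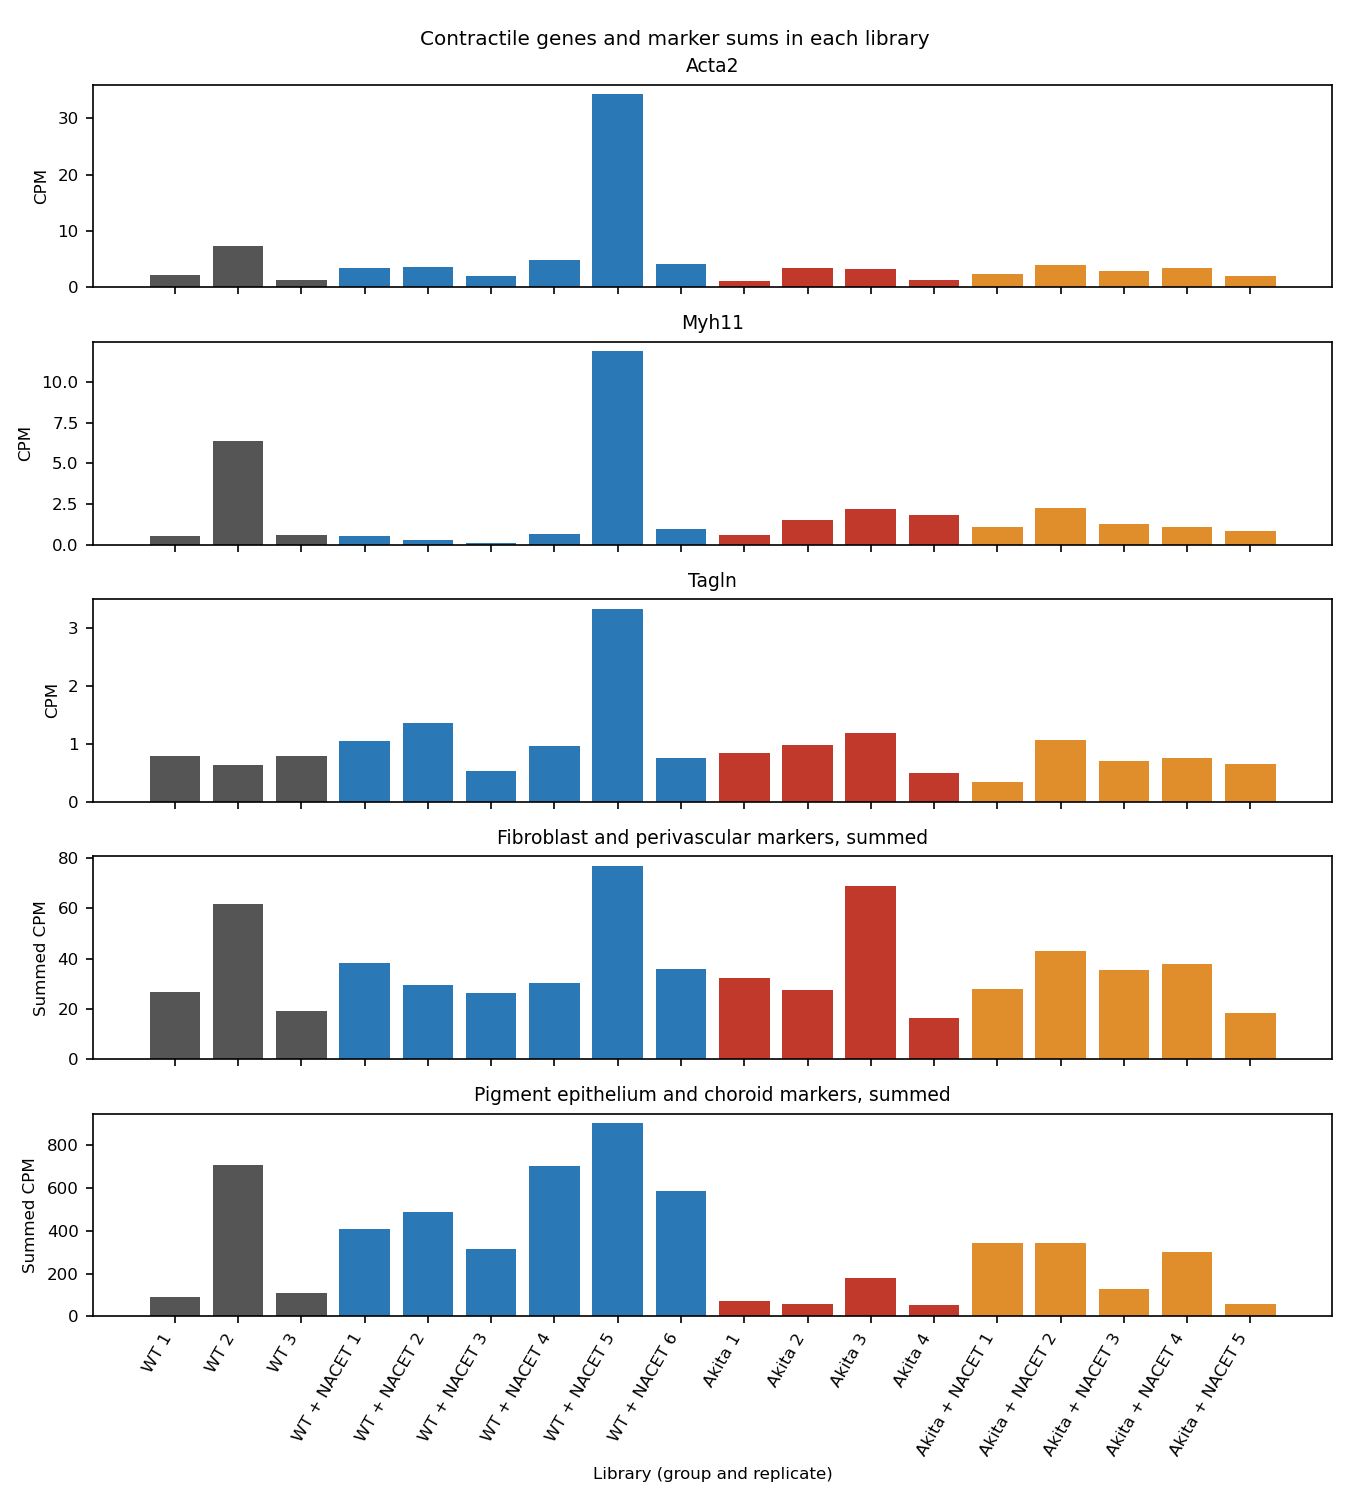
Level in CPM of Acta2, Myh11 and Tagln and summed CPM of the fibroblast and perivascular markers and of the pigment epithelium and choroid markers, as a bar from 0 for each of the 18 libraries, coloured by group. WT + NACET replicate 5 is highest in all 5 panels (34.3, 11.9, 3.33, 76.9 and 904), and WT replicate 2 is next in Acta2, Myh11 and the pigment markers (7.27, 6.4 and 710).

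In the test, 0 of the 3 contractile genes were called in a comparison by edgeR, and DESeq2 did not call Tagln and gave no adjusted p for Acta2 and Myh11. Of the 3, Acta2 and Tagln fell under 0.05 before adjustment in Akita + NACET vs WT + NACET, as did 5038 of all 16183 tested genes. The log2FC of Acta2 was 1.33 in WT + NACET vs WT (SE 0.86, adjusted p = 0.409) and 0.05 without WT + NACET replicate 5 (adjusted p = 0.965). It was -1.57 in Akita + NACET vs WT + NACET (SE 0.72, adjusted p = 0.153) and without that library -0.29 (adjusted p = 0.672). That of Myh11 was 0.01 in WT + NACET vs WT (SE 1.11, adjusted p = 0.997) and -2.24 without it (adjusted p = 0.147). With WT replicate 2 also left out, a choice made after seeing the data, it was -0.12 for Myh11 and 1.09 for Acta2 (adjusted p = 0.964 and 0.334). The log2FC of Myh11 in Akita + NACET vs WT + NACET was -0.90 (SE 1.0, adjusted p = 0.57) and turned to 1.35 without WT + NACET replicate 5 (adjusted p = 0.217). Tagln had log2FC values of 0.85 in WT + NACET vs WT (SE 0.48, adjusted p = 0.323) and -0.92 in Akita + NACET vs WT + NACET (SE 0.40, adjusted p = 0.12), which were 0.33 and -0.40 without that library. For Akita vs WT, where the group of that library is not compared, the values were -0.59 for Acta2 (SE 0.95), -0.67 for Myh11 (SE 1.25) and 0.27 for Tagln (SE 0.52). Those of Acta2 and Myh11 rested on WT replicate 2, without which they turned to 0.46 and 1.44 (adjusted p = 0.853 and 0.634).

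Counted over the set, few genes were called, and the counts are read against the share of all 16183 tested genes that was called. In Akita vs WT 1 of the 8 tested members was called, Pdgfrb, which was lower, against 7.64% of all genes in either direction, 3.96% higher and 3.68% lower. The median log2FC of the 8 was -0.49, with 6 of 8 negative, against -0.01 over all genes. Notch3, Cspg4 and Abcc9 passed the filter with 0 Akita libraries at its level, so that signs in comparisons with Akita partly depend on the filter. Akita + NACET vs Akita had 2 of 8 called, Pdgfrb and Notch3, both higher, against 9.65% of all genes, 4.51% higher and 5.14% lower, and the median of the 8 was 0.38. Akita + NACET vs WT + NACET had 1 of 8 called, Rgs5, which was lower, against 13.3% of all genes, 6.01% higher and 7.26% lower. The interaction called 2 of 8, Pdgfrb and Notch3, both positive, against 20.3% of all genes, 10.1% positive and 10.2% negative. In WT + NACET vs WT edgeR called 0 of 8, against 1.48% of all genes, 0.859% higher and 0.624% lower. Of the 8, 3 had an unadjusted p under 0.05 (Pdgfrb, Cspg4 and Rgs5), as did 3162 of all 16183 genes. DESeq2 called 1, Rgs5, of the 4 members to which it gave an adjusted p there. Between Akita + NACET and WT edgeR called 0 of 8, against 0.00618% of all genes, and DESeq2 called 0 of the 6 with an adjusted p. An unadjusted p under 0.05 was found for 0 of the 8 there and for 750 of all 16183 genes. The SE of the members in that comparison ran from 0.22 for Rgs5 to 1.19 for Myh11, and for Pdgfrb the log2FC was -0.07 (SE 0.30).

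**Figure D4:**
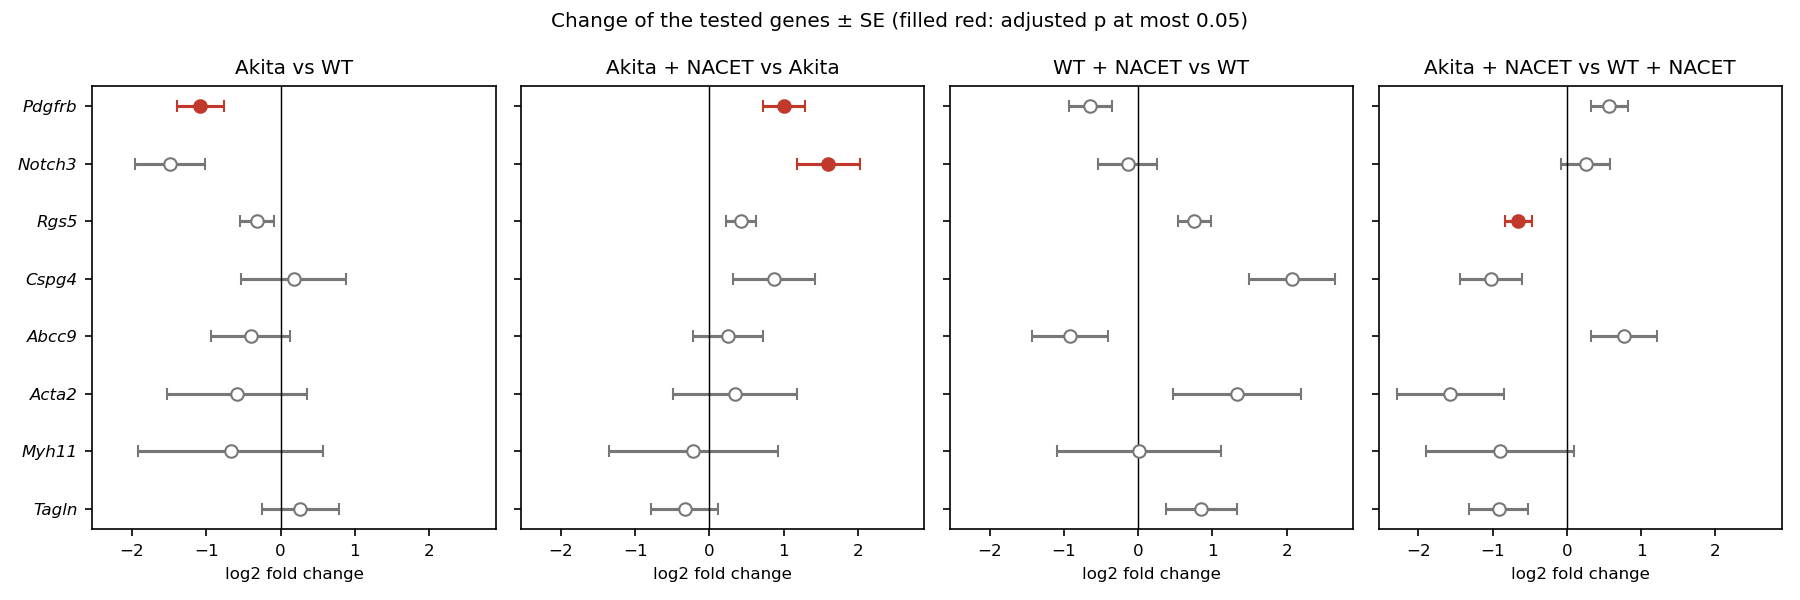
Log2FC ± SE of the 8 tested genes in 4 comparisons, with filled red points where the adjusted p was at most 0.05 and open grey points elsewhere, on a shared axis. Pdgfrb is filled in Akita vs WT (-1.08) and in Akita + NACET vs Akita (1.01), Notch3 in the latter (1.60) and Rgs5 in Akita + NACET vs WT + NACET (-0.66), and the bars of Acta2 and Myh11 are the widest.

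Other genes read in pericytes gave a mixed picture. Of 16 listed, 13 were tested. Between Akita and WT 1 was called (7.69% of the 13, against 7.64% of all genes), Gucy1a3, a subunit of the nitric oxide receptor guanylate cyclase, which was lower (log2FC -0.56, SE 0.15, adjusted p = 0.0337). Between Akita + NACET and Akita 4 were called, 30.8% against 9.65% of all genes. Higd1b, which is enriched in pericytes, rose from 0.0968 to 0.542 CPM (log2FC 2.35, SE 0.62, adjusted p = 0.029), Gucy1a3 rose by 0.50 (adjusted p = 0.0307) and the transcription factor gene Ebf1 by 0.56 (adjusted p = 0.0409). Akita libraries held 0 to 3 counts of Higd1b each, at most 0.188 CPM, under the filter level of 0.657 CPM. Higd1b was therefore tested because it was higher in other groups, and its call was lost in 5 of 12 alternatives. Vtn, vitronectin, which photoreceptors also make, fell by 0.45 on the log2 scale, from 1540 to 1120 CPM (adjusted p = 0.0304). The median log2FC of the 13 was -0.39 in Akita vs WT and 0.14 in Akita + NACET vs Akita. Gucy1a3, at 80.9 to 119 CPM on average, and Ebf1, at 31.2 to 46 CPM, were read far more often than the receptor genes Pdgfrb and Notch3. The interaction called 4 of 13, 30.8% against 20.3% of all genes, with Gucy1a3 (0.88), Ebf1 (0.76) and Gucy1b3 (0.53) positive and Vtn (-0.78) negative (adjusted p = 0.00638, 0.0305, 0.0499 and 0.00775). The call of Gucy1b3 was lost in 18 of 26 alternatives and that of Ebf1 between Akita + NACET and Akita in 9 of 17.

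Of 16 other smooth muscle contractile genes, 12 were tested, and those called are read at levels far above the contractile members. The test of Akita vs WT called 3 (25% of the 12, against 7.64% of all genes): Mylk, myosin light chain kinase, was higher (75.9 against 47.3 CPM, log2FC 0.68, adjusted p = 0.0155), Synpo2, an actin-bundling protein, was higher (0.86, adjusted p = 0.0162) and Tpm1, tropomyosin, was lower (-0.45, adjusted p = 0.0461). The test of Akita + NACET vs Akita called 2 (16.7% against 9.65%), with Tpm1 higher (0.38, adjusted p = 0.049) and Synpo2 lower (-0.49, adjusted p = 0.0467), and these calls were lost in 13 and 9 of 17 alternatives. Mylk was the 1 gene called in WT + NACET vs WT (0.56, adjusted p = 0.031), 8.33% of the list against 1.48% of all genes. The list did not move one way in Akita vs WT: 6 of its 12 genes were positive and 6 negative, with a median of 0.01.

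Of the signalling genes of the PDGF and Notch pathways and of vessel recruitment, 17 of 20 were tested. The test of Akita vs WT called 1 (5.88% of the 17, against 7.64% of all genes), Eng, endoglin, a co-receptor of the TGF-beta family on endothelium, which was lower at 0.735 against 2.28 CPM (log2FC -1.59, SE 0.45, adjusted p = 0.0389), and the interaction called Eng too (2.17, adjusted p = 0.0146), 5.88% against 20.3%, so that both shares lay below the background. The call of Eng was lost in 9 of 15 alternatives in Akita vs WT and in 3 of 25 for the interaction. Of the other PDGF ligands, the log2FC values in Akita vs WT were -0.36 for Pdgfa, 0.25 for Pdgfc and -0.31 for Pdgfd (adjusted p = 0.323, 0.587 and 0.396). Of the other Notch receptors they were -0.77 for Notch1 and -0.65 for Notch2 (adjusted p = 0.121 and 0.158), and the Notch target genes Hes1 and Hey1 were at -0.23 and -0.22 (adjusted p = 0.701 and 0.406). The signs of this list were mostly negative in Akita vs WT (13 of 17 genes, median -0.22) and mostly positive in Akita + NACET vs Akita (14 of 17, median 0.19), and the 2 comparisons share the Akita libraries.

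Most endothelial markers changed in the same direction as Pdgfrb and Notch3 in Akita vs WT and in Akita + NACET vs Akita. Of 18 endothelial markers 15 were tested. In Akita vs WT the tight junction gene Cldn5 was called and lower (log2FC -2.11, adjusted p = 0.0365), which is 6.67% of the 15 against 7.64% of all genes, and 13 of the 15 were negative with a median of -0.82. Akita libraries held 2 to 10 counts of Cldn5 each, at most 0.58 CPM, under the filter level of 0.657 CPM. Cdh5, Emcn, Tie1 and Ly6c1 stayed under it in Akita too, at most 0.29, 0.565, 0.637 and 0.637 CPM. These genes were tested because they were higher in other groups, so that the signs and medians of this list partly depend on the filter. Between Akita + NACET and Akita, Cldn5, the transporter gene Slco1a4 and the transcription factor gene Sox17 were called and higher (2.14, 1.65 and 1.94, adjusted p = 0.0239, 0.041 and 0.034), which is 20% against 9.65%, and 14 of the 15 were positive with a median of 1.38. The summed level of all 18 was 141 to 185 CPM in WT, 142 to 200 CPM in WT + NACET, 105 to 159 CPM in Akita and 159 to 185 CPM in Akita + NACET. The summed level of 6 red cell genes was 12.9 to 28.5 CPM in WT, 20 to 56.5 CPM in WT + NACET, 12 to 34.2 CPM in Akita and 36.1 to 97.9 CPM in Akita + NACET. Its median was 20.8 CPM in Akita and 16.6 CPM in WT, and the ranges of these groups overlapped. Akita replicate 4, which was lowest in Pdgfrb, Notch3 and Rgs5, held the lowest endothelial and red cell sums of all 18 libraries. The part of these cells in the levels of Pdgfrb and Notch3 was not tested. Of 29 calls of genes outside the 10 members that were followed through the alternatives, 0 were kept once the non-exonic share entered the fit. The share of all genes called in that fit is not given here, so that this loss cannot be read as particular to these genes. Of the same 29 calls, DESeq2 kept 28 and gave no adjusted p for the other one, and edgeR on the 2 groups compared kept 8 of the 17 that it could test. Under all alternatives in Akita + NACET vs Akita, the log2FC of Cldn5 stayed between 1.82 and 2.34, that of Slco1a4 between 1.41 and 1.90 and that of Sox17 between 1.70 and 2.62. Their calls were lost in 4 of 16, 10 of 17 and 8 of 16 alternatives, and that of Cldn5 in Akita vs WT in 8 of 15.

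The genes whose levels ran most like Pdgfrb over the 18 libraries were Ralgds (Pearson r of log2 CPM 0.888), Prmt6 (0.882), Mknk2 (0.877), Zbtb20 (0.875) and Nrp2 (0.874), out of 14469 genes with a mean of at least 1 CPM. Without the 2 libraries farthest from the median of Pdgfrb, Akita replicates 4 and 1, these r were 0.827 to 0.856. Those most like Acta2 were Sfrp1 (0.91), Nid1 (0.879), Gpnmb (0.867), Dct (0.867) and Tspan18 (0.866), and without WT + NACET replicate 5 and Akita replicate 1 they were 0.75 to 0.825. These r are a description, chosen as the highest of many, over libraries that share group, depth and the composition described above.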

How the data were processed

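Per the study's methods, the authors made poly(A) libraries (TruSeq RNA v2) from retina, ran them as single-end reads on a NextSeq instrument, aligned these to mouse build mm9 with TopHat2 2.1.0 and counted them per gene, over exons and without regard to strand, with HTSeq 0.11.2. The deposited values are raw counts per gene, 1 table per library. Groups came from the sample labels. From these counts, 206 ribosomal RNA gene names were removed, as the study removed rRNA, and an entry without a name (0.0054% of the gene counts on average) was left out. The edgeR 4.0.16 quasi-likelihood F test (R 4.3.3) was fitted to all 18 libraries in 4 groups, with TMM factors, the default filter (minimum count 10, minimum total 15) and robust dispersion. Adjusted p-values follow Benjamini and Hochberg over 16183 genes, and a gene was called at an adjusted p of at most 0.05 with no minimum fold. The SE was derived from the F statistic. Counts per library ranged from 11495596 to 17814479.

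The members and gene lists were chosen with earlier results of these data known. All 10 members were named, with at most 4 called genes per other list and comparison (smallest adjusted p) and, for Pdgfrb and Acta2 each, the 5 most similar genes. Pigment and red cell genes were given mainly as sums, and some items are not reported here. Exon lengths and positions came from the mm9 reference annotation, and promoters from RefSeq. The test was tried on simulated data. Alternatives were DESeq2 1.42.0 (the study's tool) and its size factors, 2 groups only, no filter, a filter at a mean count of 50, a block for the replicate number, the non-exonic share as a covariate, rRNA genes kept, and each library left out.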

Additional observations from a re-analysis of the deposited data

Results flagged for a closer look

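Acta2 (34.3 CPM), Tagln (3.33 CPM) and Myh11 (11.9 CPM) in WT + NACET replicate 5 stood far from the other 5 libraries of their group by Dixon's criterion. The criterion was applied to 30 combinations of a gene and a group of 4 to 6 libraries and marked these 3, which come from 1 library, where chance marks about 1 in 20. WT has 3 libraries and was not examined in this way.

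The response of Pdgfrb to NACET differed between Akita and WT by 1.65 on the log2 scale (adjusted p = 0.0105), and that of Notch3 by 1.74 (adjusted p = 0.0394), by the interaction term of the edgeR fit. This term was called for 20.3% of all genes. With the non-exonic share in the fit it was 0.58 for Pdgfrb and 0.95 for Notch3 (adjusted p = 0.764 and 0.745). It includes the WT + NACET libraries, where NACET and whatever else marks them cannot be told apart.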

How the results depend on the processing

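The number of members called depended on the settings. In Akita vs WT it was 1, and it was 2 by DESeq2, 0 with 2 groups only, 0 with the non-exonic share of reads as a covariate and 0 without WT replicate 2 and WT + NACET replicate 5 together. For Akita + NACET vs Akita it was 2, and it was 0 with 2 groups only, 1 with a mean count of at least 50 and 0 with that covariate. In WT + NACET vs WT it was 0, and 1 by DESeq2. DESeq2 gave an adjusted p to 4 to 6 of the 8 members in a comparison, never to Acta2 or Myh11. For Akita + NACET vs WT + NACET it was 1, and 0 without a filter, with that covariate and without those 2 libraries. The interaction called 2, and 1 without a filter, 1 with a mean count of at least 50, and 0 with the covariate and without those 2 libraries. Leaving out each library in turn gave 0 to 1 in Akita vs WT, 0 to 2 in Akita + NACET vs Akita, 0 to 1 in WT + NACET vs WT, 0 to 1 in Akita + NACET vs WT + NACET and 0 to 2 for the interaction. Where the alternative has fewer libraries, it also has less power, and otherwise the cause was not tested. The share of all genes called under each alternative is not given here, so that changes in these counts cannot be read as particular to the members.

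Of 48 changes of a member in a comparison, 20 changed sign in at least 1 alternative, and 0 of the 6 called ones did. Myh11 in WT + NACET vs WT reversed to -0.031 by DESeq2, -1.32 with the covariate, -0.12 without those 2 libraries and without WT replicate 1 or 3 or WT + NACET replicate 5, with -2.24 to 2.13 over all libraries left out in turn. Its change in Akita + NACET vs WT + NACET reversed to 0.35 with the covariate, 1.35 without those 2 libraries and 1.35 without WT + NACET replicate 5, with -1.19 to 1.35 over all libraries left out in turn. In Akita vs WT, without those 2 libraries, Acta2 reversed to 0.45 and Myh11 to 1.44, and libraries left out in turn gave -1.02 to 0.46 and -1.17 to 1.44.

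Samples with the same replicate number did not regularly deviate together (22 pairs, r of -0.332 to 0.345, over 0.1 in 4). Pairs with different numbers were not examined, so that this check cannot settle whether the numbers pair any libraries. With the replicate number as a block, the members called were 0 in Akita + NACET vs Akita, 0 in Akita + NACET vs WT + NACET and 1 for the interaction, and Myh11 reversed to -1.28 in WT + NACET vs WT and to 0.39 in Akita + NACET vs WT + NACET.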
